A study of Mus musculus with 18 samples.

Results

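Interferon-stimulated genes were followed in the epidermis of mice with and without the aryl hydrocarbon receptor (AhR), a ligand-activated transcription factor, before and after the skin was stripped with adhesive film. The set holds 38 gene symbols, chosen by name as well-known interferon targets, with earlier results of these data known. Counts over the set, given beside the share of all rows, are therefore descriptions and not independent tests. A gene was read from the table row that named it alone, and where several rows did so, from the row with the largest standard deviation (SD) over the 18 arrays. Of the 38 symbols, 34 had such a row, out of 23521 rows in the table that named 1 gene. Ifi44 had no row, and Oas1a, Dtx3l and Gbp2 appeared only in rows shared with another gene (Oas1g, Parp9 and Gbp2b, in that order), so these 4 were not analysed here. Parp9 also had a row of its own, which was used.

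The mice were female, on a mixed B6;129 background, and either AhR-/- (KO, from the B6.129-AhRtm1Bra/J germline null line) or AhR+/+ littermates (WT). KO mice lack AhR in every cell, so no value can be assigned to keratinocytes or to the immune cells of the skin. Epidermal sheets of back skin were taken before tape stripping (0 h) or 6 or 24 h after it, with 3 arrays for each genotype and time, which gives 6 groups. Stripped mice had 5 applications of film on shaved back skin, and the ages were not given in the sources used here. The protocol text also mentions mice with AhR deleted only in keratinocytes or Langerhans cells, but each of these arrays is labelled with the germline genotype. The series text states 3 animals per group, but no label names the animal of an array. The p-values therefore measure the spread between these samples.

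Interferons are secreted proteins that warn cells of viral or bacterial infection. Type I and type III interferons bind receptors whose JAK kinases switch on a complex, with STAT2 and IRF9 among its parts, that binds the interferon-stimulated response element (ISRE) in target promoters. Type II interferon acts through a different element, the gamma-activated site (GAS), and induces IRF1, immunoproteasome subunits and guanylate-binding proteins. In skin, keratinocytes carry the receptors for all 3 types, and many of these genes also have a low level of expression without infection.

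The deposited values are logs, taken here as log2, and each row was centred so that its median across arrays is 0. A value of 0 therefore marks a gene's own middle array, the values carry no absolute level, and they cannot be compared between genes. For the same reason the epidermal identity of the samples could not be checked from marker levels. Ahr itself was lower in KO than in WT in every array at each time, by -0.32 at 0 h (adjusted p = 0.556, limma's moderated test), by -1.11 after 6 h (adjusted p = 0.00549), and by -0.70 after 24 h (adjusted p = 0.22). Each sample also carries a 4-digit number of unstated meaning. Numbers below 3000 belong to 1 KO and 2 WT arrays at 0 h and to 2 of each genotype at 6 h. Numbers from 3000 up belong to 2 KO arrays and 1 WT array at 0 h, to 1 of each genotype at 6 h and to all arrays at 24 h. Where a result within a class has a group of 1 array, that array is assumed to vary like those of the other groups, and where it sets 1 array against 1, only the value is given.

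Promoter windows from RefSeq (GRCm38.p6), running from 250 bases before to 50 bases after a gene's start, were found for 29 of the 38 symbols, in 33 windows. The ISRE was searched as GAAA, any 2 bases and GAAA again, and the GAS as TTCNNNGAA, each on both strands. The ISRE letters stood in 11 of the 33 windows (33.3%), against 3.44% of all 32851 RefSeq windows of that length, and the GAS letters in 6 (18.2%), against 8.3%. Measured genes with an ISRE match were Bst2, Gbp3, Ifih1, Ifit1, Ifit3, Isg15, Oas3, Rsad2 and Stat2, and those with a GAS match were Bst2, Ifit2, Irf1, Psmb8 and Samhd1. In Bst2 the 2 kinds of match overlap. A match is a run of letters, not a measured binding site. Usp18, Dhx58, Zbp1, Oas2, Mx1, Mx2, Rtp4, Parp9 and Parp14 were not in the promoter table.

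The matches below are shown because they have the letters of the element through which type I interferon acts, in genes described one by one further on. Each is printed 5′ to 3′ on the gene's strand, with the ISRE letters in capitals. The first 4 lie before the start of the gene (78 bases before it for Isg15, 104 for Ifit1, 130 for Bst2 and 120 for Rsad2, counted to the first matching base), and that of Ifih1 lies 33 bases after it. Ifih1 is shown over 28 bases only.
Isg15, chr4:156200865-156200906, minus strand: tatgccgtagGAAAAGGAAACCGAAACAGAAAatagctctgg
Ifit1, chr19:34640775-34640823, plus strand: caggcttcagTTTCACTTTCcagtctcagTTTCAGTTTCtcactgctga
Bst2, chr8:71537577-71537612, minus strand: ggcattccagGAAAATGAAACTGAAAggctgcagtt
Rsad2, chr12:26456553-26456582, minus strand: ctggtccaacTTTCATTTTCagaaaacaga
Ifih1, chr2:62646206-62646233, minus strand: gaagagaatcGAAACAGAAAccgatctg

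GAS matches are shown for Irf1 (90 bases before the start) and Psmb8 (97 bases before it), with the GAS letters in capitals, since interferon-gamma acts through this element.
Irf1, chr11:53769914-53769942, plus strand: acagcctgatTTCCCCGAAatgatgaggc
Psmb8, chr17:34198088-34198116, plus strand: tcctccgctgTTCCCAGAAgatgcccccc

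The 250 bases before the start are printed for Samhd1, Slfn2 and Ube2l6, which are 3 of the 4 genes with a genotype difference past the test (the fourth, Zbp1, was not in the promoter table). Capitals mark the only match to either motif in these runs, a GAS match 235 bases before the start of Samhd1. The Slfn2 and Ube2l6 windows held neither run of letters, which says only that these letters are not in this window.
Samhd1, chr2:157135097-157135346, minus strand: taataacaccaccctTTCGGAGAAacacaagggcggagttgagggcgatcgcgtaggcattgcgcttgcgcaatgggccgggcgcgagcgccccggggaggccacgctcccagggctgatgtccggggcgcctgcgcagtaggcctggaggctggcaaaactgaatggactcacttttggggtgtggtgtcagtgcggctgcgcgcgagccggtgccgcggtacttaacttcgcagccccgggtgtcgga
Slfn2, chr11:83064862-83065111, plus strand: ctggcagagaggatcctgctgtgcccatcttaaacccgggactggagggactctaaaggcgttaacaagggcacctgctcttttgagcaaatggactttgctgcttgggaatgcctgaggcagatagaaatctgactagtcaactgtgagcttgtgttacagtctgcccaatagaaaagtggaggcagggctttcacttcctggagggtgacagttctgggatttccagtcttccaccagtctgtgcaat
Ube2l6, chr2:84798578-84798827, plus strand: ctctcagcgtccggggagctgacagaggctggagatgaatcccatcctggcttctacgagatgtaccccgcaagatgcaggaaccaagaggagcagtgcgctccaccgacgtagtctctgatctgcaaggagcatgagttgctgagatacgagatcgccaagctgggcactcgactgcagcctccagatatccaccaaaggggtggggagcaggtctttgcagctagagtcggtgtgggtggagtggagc

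Over the whole set, high values lay on KO arrays. The array with the highest value was a KO array for 33 of the 34 genes, against 54.9% of all rows, with Dhx58 as the exception. The array with the lowest value was a KO array for 13 of the 34, against 56.2% of all rows, and for another 13 it was a WT array taken at 24 h. These peaks were spread over time: 12 genes had their highest array in KO at 0 h, 11 in KO at 6 h and 10 in KO at 24 h. Some arrays recurred, since KO replicate 2 at 0 h was the highest for 10 genes, KO replicate 3 at 24 h for 8, and WT replicate 1 at 24 h was the lowest for 8. Shares of all rows were not counted for single groups or arrays, so these counts by group and array have no comparison. The arrays also differed in their SD over all rows that name 1 gene, from 0.138 (WT replicate 1 at 6 h) to 0.226 (WT replicate 1 at 0 h). The median SD of the 34 genes over the 18 arrays was 0.245, and 85.9% of all rows had a smaller SD.

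**Figure D1:**
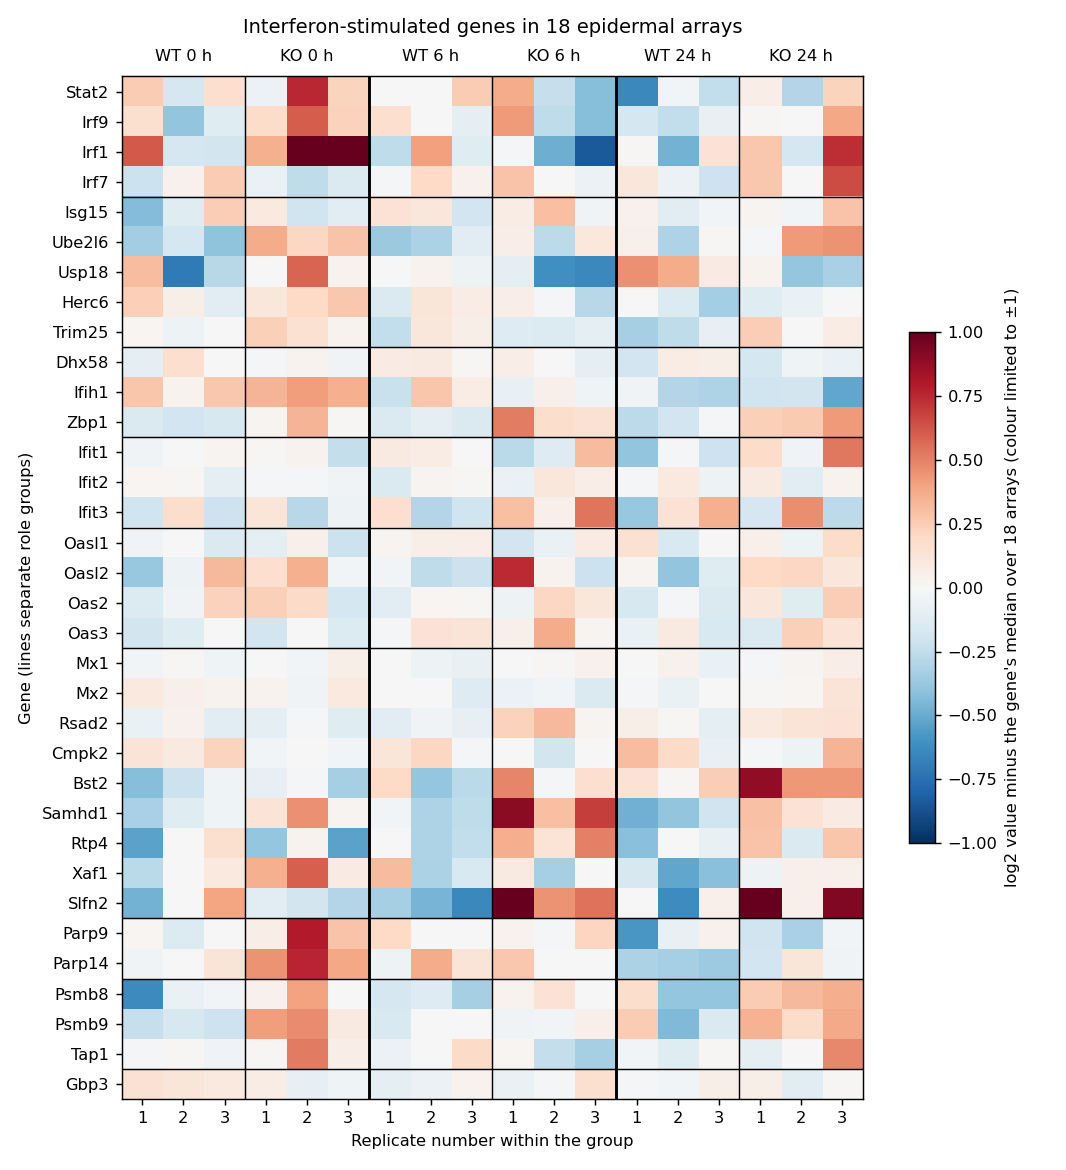
Heat map of 34 interferon-stimulated genes (rows, separated by role) in 18 arrays (columns, 3 per genotype and time, WT beside KO). Colour gives the log2 value minus the gene's median over the 18 arrays, limited to -1 and 1, with red above and blue below that median; the darkest red cells of Irf1, Samhd1 and Slfn2 stand on KO arrays, and KO replicate 2 at 0 h holds the highest value of 10 genes.

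The difference between KO and WT was small for most of the genes, and few passed the test. At 0 h, 0 of the 34 genes passed limma's moderated test at a Benjamini-Hochberg adjusted p under 0.05, as did 0.0978% of all rows. At an unadjusted p under 0.05, 10 genes were higher in KO (3.82% of all rows were) and 0 were lower (4.66%). The median difference of the set was 0.11 on the log2 scale, with 22 of 34 above 0 (48.5% of all rows were), against a median of -0.0034 over all rows. With single arrays left out it ran from 0.027 (without WT replicate 1) to 0.18 (without KO replicate 3), and it was 0.075 without KO replicate 2. The KO arrays lay above the WT arrays without overlap for 10 genes (5.98% of all rows) and below them for 2, Gbp3 and Cmpk2 (7.71%).

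At 6 h, Samhd1 and Slfn2 passed and were higher in KO, 2 of 34 genes, where 0.366% of all rows passed in that direction and 2.18% in either direction. Another 4 genes (Zbp1, Rsad2, Rtp4 and Bst2) had an unadjusted p under 0.05, each with a higher value in KO, which makes 6 (5.66% of all rows), and 0 were lower (10.1%). The median difference was 0.03, with 18 of 34 above 0 (52.5% of all rows), against a median of 0.0065 over all rows. Leaving out WT replicate 3 turned the sign of the set's median (-0.017), and with the other single arrays left out it reached up to 0.057. Without overlap, KO lay above WT for 6 genes (7.42% of all rows) and below it for 1, Usp18 (10.3%).

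At 24 h, 0 of 34 genes passed, as did 0.017% of all rows. At an unadjusted p under 0.05, 12 genes were higher in KO (3.08% of all rows) and 1 was lower, Usp18 (3.64%). The median difference was 0.24, with 27 of 34 above 0 (49.7% of all rows), the widest of the 3 times, and all rows had a median of -0.0006. Leaving out KO replicate 3, which held 8 of the highest values, gave 0.14. KO lay above WT without overlap for 11 genes (6.36% of all rows) and below it for 1 (6.53%).

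Averaged over the 3 times, KO against WT, 3 of 34 genes passed, Samhd1, Zbp1 and Ube2l6, and each was higher in KO. Of all rows, 0.374% passed in either direction, and these 3 were among the 12 (0.051%) that were higher in KO. The median of this average difference was 0.12, 29 of 34 genes were above 0 (50.2% of all rows were), and 12 had an unadjusted p under 0.05 with a higher value in KO (4.48% of all rows). KO lay above WT without overlap at each of the 3 times for Samhd1, Zbp1 and Psmb8, and for only 3 other rows of the table (0.0255% of rows in all). Another 4 genes did so at 2 times, 10 at 1 time and 17 at none. The matching shares of all rows were not counted, so these 3 counts have no comparison.

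**Figure D2:**
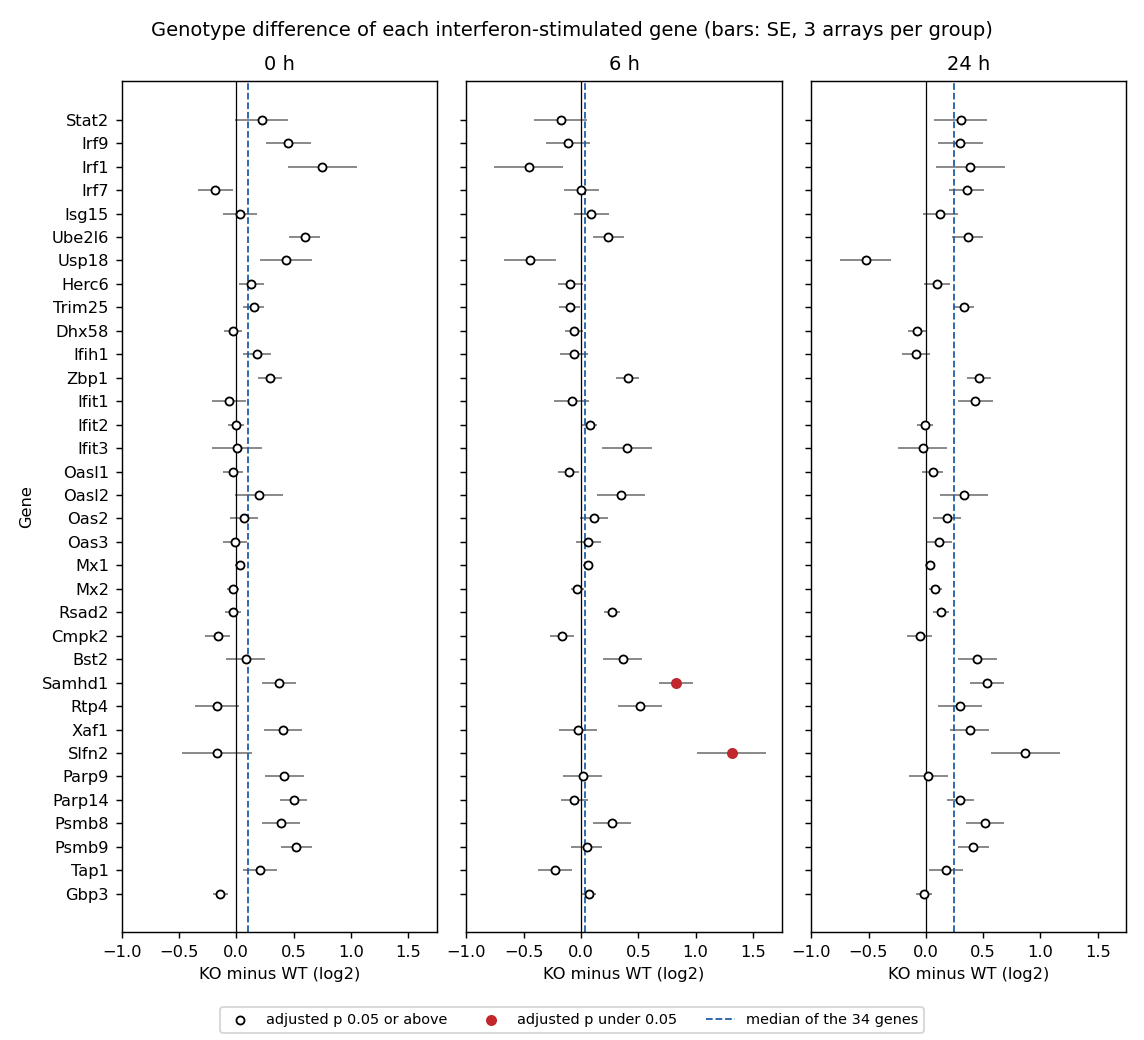
KO minus WT difference (x axis, log2) of each of the 34 genes (y axis) at 0, 6 and 24 h, with bars for the standard error from limma and 3 arrays per group. Filled red points passed at an adjusted p under 0.05 (Samhd1 and Slfn2 at 6 h), and the dashed line marks the median of the 34 genes, 0.11, 0.03 and 0.24 at the 3 times.

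Markers of other cells differed between the same groups. All 5 markers of epidermal gamma-delta T cells (Trgv5, Cd3e, Cd3g, Cd7 and Il2rb) were lower in KO, with median differences of -1.61 at 0 h, -1.28 at 6 h and -1.72 at 24 h, of which 3, 4 and 1 passed. The mean of these markers ran from -1.32 to -0.38 in KO and from 0.48 to 0.96 in WT at 0 h, from -0.88 to -0.38 against 0.77 to 0.97 at 6 h, and from -1.12 to -0.95 against 0.22 to 0.90 at 24 h. The mean of 6 neutrophil and monocyte markers was near that of WT at 0 h, ran from 0.035 to 0.49 in KO and -0.034 to 0.062 in WT at 6 h, and from 0.12 to 0.61 against -0.025 to 0.017 at 24 h, with 0 of 6 past the test for genotype. The markers did not move together. At 24 h, S100a8 read 1.12, 0.52 and 1.57 in KO against -0.10, 0.039 and -0.23 in WT. S100a9 read 0.86, 0.32 and 0.85 against -0.0063, -0.043 and 0.0063. Ly6g, Ly6c2, Lyz2 and Csf3r overlapped between the genotypes there, and at 6 h only Ly6g lay apart. Of 4 macrophage markers, C1qa passed at 6 h (0.59 higher in KO, adjusted p = 0.0273), while Adgre1 had differences of -0.54, -0.28 and -0.29 at the 3 times that did not pass. Cd68 read 0.73, 0.17 and 0.0077 in KO against 0.26, -0.69 and -0.37 in WT at 6 h. At 24 h Cd68 was 0.51 higher in KO, and neither difference passed. Mrc1 stayed between -0.13 and 0.14 on all arrays. The 3 measured Langerhans cell markers had median differences of -0.46, 0.085 and -0.052 at the 3 times, with 0 past the test. Of 3 measured keratinocyte markers Krt1 passed at 0 h (-0.67, adjusted p = 0.0212). Markers of plasmacytoid dendritic cells, the specialised producers of type I interferon, had 0 of 4 past the test at any time. Their mean stayed between -0.13 and 0.16 in every array, but single markers differed in range. Over the arrays Tcf4 ran from -0.43 to 0.77 and Ccr9 from -0.26 to 0.54, while Siglech and Klk1 stayed between -0.15 and 0.18. In such bulk samples, fewer cells of a type and less RNA per cell cannot be told apart. The cells that the RNA of S100a8 and S100a9 came from are not known here either. The part of these cell types in the differences of the interferon-stimulated genes was not tested.

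The transcription factors of the pathway were measured through Stat2 and Irf9, which are parts of the ISRE-binding complex, Irf1, a GAS-driven activator, and Irf7, which amplifies type I interferon production. None of the 4 passed for genotype at any time. Irf1 had the widest range among them and moved with time in KO. Irf1 read 0.35, 1.06 and 1.10 in KO and 0.61, -0.17 and -0.18 in WT at 0 h. It read -0.011, -0.48 and -0.84 in KO against -0.25, 0.41 and -0.12 in WT at 6 h. By 24 h the values were 0.27, -0.17 and 0.74 in KO against 0.011, -0.47 and 0.14 in WT. The 3 KO arrays at 6 h lay below the 3 at 0 h without overlap, whereas the WT arrays of the 2 times overlapped. Irf1 fell by 1.28 in KO between 0 h and 6 h (SE 0.301, 2.44-fold, adjusted p = 0.0269, limma's moderated test). The difference between genotypes in this response was -1.21 and did not pass (adjusted p = 0.204). Without 1 of 4 KO arrays (replicates 2 and 3 at 0 h and at 6 h) the fall no longer passed, and within numbers below 3000 (1 array at 0 h) and from 3000 up (1 array at 6 h) it was -1.02 (adjusted p = 0.141) and -1.09 (adjusted p = 0.14).

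Irf9 was 0.45 higher in KO at 0 h without overlap (SE 0.194, adjusted p = 0.531), and Stat2 differed by 0.22 there with overlapping arrays. For both genes the difference at 6 h was slightly negative (-0.11 and -0.18), and at 24 h it was 0.30. Irf7 showed a difference of -0.18 at 0 h, -0.00021 at 6 h and 0.36 at 24 h (adjusted p = 0.699). Its 3 KO arrays at 24 h lay above those at 0 h without overlap, a difference of 0.46 that missed the threshold (adjusted p = 0.0723).

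Genes of the ISG15 system attach the ubiquitin-like protein ISG15 to other proteins or remove it. Ube2l6, the conjugating enzyme of this system, was higher in KO, while Isg15 itself and Herc6, its ligase in mice, showed no difference past the spread. Ube2l6 read 0.37, 0.21 and 0.28 in KO and -0.35, -0.18 and -0.40 in WT at 0 h. After 6 h it read 0.066, -0.26 and 0.11 in KO against -0.37, -0.32 and -0.11 in WT. The 24 h values were -0.015, 0.42 and 0.45 in KO against 0.049, -0.31 and 0.015 in WT. Only the 0 h arrays were fully apart by genotype. The difference was 0.60 at 0 h (SE 0.135, 1.51-fold, adjusted p = 0.156) and 0.40 on average over the 3 times (SE 0.0778, 1.32-fold, adjusted p = 0.0402). The average call was fragile, since it passed in 12 of 27 alternative analyses. Within numbers from 3000 up the average was 0.47, which rests partly on 1 array against 1 at 6 h. With single arrays left out it ranged from 0.36 to 0.45, and it passed only without WT replicate 2 at 0 h, KO replicate 1 or 2 or WT replicate 1 at 6 h, or KO replicate 1 at 24 h.

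Usp18 removes ISG15 from proteins and restrains signalling at the type I interferon receptor. It was lower in KO after stripping, against the direction of the set at 24 h. Usp18 read 0.0056, 0.59 and 0.039 in KO and 0.31, -0.71 and -0.28 in WT at 0 h. At 6 h the KO arrays gave -0.10, -0.62 and -0.64 and the WT arrays -0.0056, 0.034 and -0.052. At 24 h they gave 0.035, -0.38 and -0.32 against 0.45, 0.37 and 0.084. KO thus lay below WT without overlap at 6 h and 24 h, by -0.44 (adjusted p = 0.362) and -0.53 (adjusted p = 0.699), but neither difference passed. The difference between genotypes in the 24 h response was -0.96 (SE 0.319, adjusted p = 0.354). Trim25, a ligase that activates the RNA sensor RIG-I, was higher in KO without overlap at 0 h (0.15) and 24 h (0.33, adjusted p = 0.53). Isg15 differed by 0.03, 0.09 and 0.13 at the 3 times, and each of these is smaller than its SE of 0.15. Herc6 differed by 0.13, -0.09 and 0.10, with an SE of 0.11.

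Among the nucleic acid sensors, Zbp1, which recognises left-handed nucleic acids and can start cell death, was higher in every KO array than in any WT array of the same time. Zbp1 read 0.029, 0.34 and 0.0093 in KO and -0.15, -0.19 and -0.16 in WT at 0 h. It read 0.51, 0.17 and 0.16 in KO and -0.15, -0.087 and -0.15 in WT at 6 h. In the 24 h groups it read 0.24, 0.26 and 0.43 in KO and -0.26, -0.19 and -0.0093 in WT. The WT arrays were all below 0 and the KO arrays all above it. The difference was 0.29 at 0 h (adjusted p = 0.408), 0.41 at 6 h (SE 0.103, adjusted p = 0.055) and 0.46 at 24 h (1.38-fold, adjusted p = 0.289). Averaged over time it was 0.39 (SE 0.0596, 1.31-fold) and passed (adjusted p = 0.0115). The average passed in 26 of 27 alternative analyses, including each analysis without 1 array. The exception was within numbers from 3000 up, where the average was 0.48 and rests partly on 1 array against 1 at 6 h.

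Ifih1, which encodes the double-stranded RNA sensor MDA5, passed for genotype at no time but fell with time in KO. Ifih1 read 0.34, 0.42 and 0.36 in KO and 0.28, 0.032 and 0.27 in WT at 0 h. It read -0.074, 0.053 and -0.040 in KO and -0.23, 0.27 and 0.071 in WT at 6 h. A day after stripping it read -0.20, -0.19 and -0.52 in KO and -0.032, -0.30 and -0.31 in WT. The 24 h arrays lay below the 0 h arrays without overlap in both genotypes. The fall over 24 h was -0.67 in KO (SE 0.121, 1.59-fold, adjusted p = 0.00442) and -0.41 in WT (adjusted p = 0.167), and the difference between these responses was not past the test (-0.27, adjusted p = 0.71). The KO value passed in all 16 alternative analyses, and within numbers from 3000 up it was -0.69 (adjusted p = 0.0145). Dhx58, which encodes LGP2, a modulator of MDA5, stayed between -0.19 and 0.17 in all 18 arrays.

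The IFIT genes encode RNA-binding proteins that block translation of viral messages and are among the most strongly interferon-induced genes known. They showed no common shift here. Ifit1 read 0.014, 0.034 and -0.24 in KO and -0.033, -0.0026 and 0.030 in WT at 0 h. At 6 h it read -0.27, -0.13 and 0.31 in KO against 0.093, 0.072 and 0.0026 in WT. At 24 h it read 0.18, -0.033 and 0.53 in KO against -0.40, -0.018 and -0.21 in WT. The genotypes overlapped at each time, and the 24 h difference of 0.43 (SE 0.149) did not pass (adjusted p = 0.609). Ifit3 differed by 0.40 at 6 h (SE 0.216, adjusted p = 0.398), but by only 0.01 and -0.03 at the other times; its row may share probes with its near copy Ifit3b. Ifit2 stayed within -0.15 and 0.11 on all arrays.

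The oligoadenylate synthetase family makes a messenger that switches on the antiviral ribonuclease RNase L. Oasl2 had the widest range in this family. Oasl2 read 0.17, 0.35 and -0.031 in KO and -0.38, -0.051 and 0.32 in WT at 0 h. It read 0.74, 0.038 and -0.22 in KO and -0.026, -0.25 and -0.21 in WT at 6 h. For 24 h the values were 0.20, 0.20 and 0.11 in KO and 0.026, -0.39 and -0.12 in WT. Only at 24 h did the genotypes not overlap, with a difference of 0.34 (SE 0.209, adjusted p = 0.823), and the 0.74 of KO replicate 1 at 6 h stood alone. Oas2, Oas3 and Oasl1 differed by at most 0.18 in size at any time, with SEs of 0.122, 0.108 and 0.0913. Members of this family are similar in sequence, and probes may not separate them.

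Samhd1, which depletes the deoxynucleotides that viruses need, gave the clearest genotype difference of the set. Samhd1 read 0.14, 0.46 and 0.025 in KO and -0.33, -0.12 and -0.047 in WT at 0 h. At 6 h it read 0.91, 0.30 and 0.69 in KO against -0.025, -0.31 and -0.25 in WT. At 24 h the KO arrays gave 0.29, 0.15 and 0.083 and the WT arrays -0.48, -0.40 and -0.20. Every KO value was above 0 and every WT value below it. The difference was 0.37 at 0 h (adjusted p = 0.475), 0.83 at 6 h (SE 0.146, 1.78-fold, adjusted p = 0.015) and 0.53 at 24 h (adjusted p = 0.499), and the average over time was 0.58 (SE 0.0842, 1.49-fold, adjusted p = 0.00723). At 6 h it was 0.78 within numbers below 3000 (adjusted p = 0.0257) and 0.93 from 3000 up, which is 1 array against 1. The 6 h call was lost when KO replicate 3 (adjusted p = 0.0721), WT replicate 2 (adjusted p = 0.0692) or WT replicate 3 (adjusted p = 0.0885) was left out, and the difference ranged from 0.69 to 0.995 with single arrays left out. The average over time passed in 26 of 27 alternative analyses. The exception was within numbers from 3000 up, where the average was 0.68 and rests partly on 1 array against 1 at 6 h.

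Slfn2, a Schlafen protein that controls immune cell quiescence and has a negative regulatory role on some interferon targets, showed the widest range of all 34 genes. Slfn2 read -0.11, -0.18 and -0.29 in KO and -0.47, 0.0024 and 0.39 in WT at 0 h. At 6 h it read 1.5, 0.45 and 0.55 in KO and -0.33, -0.46 and -0.65 in WT. After 24 h it read 1.05, 0.051 and 0.93 in KO against -0.0024, -0.63 and 0.053 in WT. The genotypes were intermixed at 0 h, fully apart at 6 h, and nearly apart at 24 h. The 6 h difference was 1.31 (SE 0.302, 2.49-fold, adjusted p = 0.0384), and it ranged from 0.98 to 1.5 with single arrays left out, passing only without WT replicate 1. Within numbers below 3000 it was 1.05 (adjusted p = 0.0172), and from 3000 up, 1 array against 1, it was 1.83. The difference between genotypes in the 6 h response was 1.48 (SE 0.427) and did not pass (adjusted p = 0.121). Slfn2 belongs to a family of similar genes, so its row may partly read the others.

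**Figure D3:**
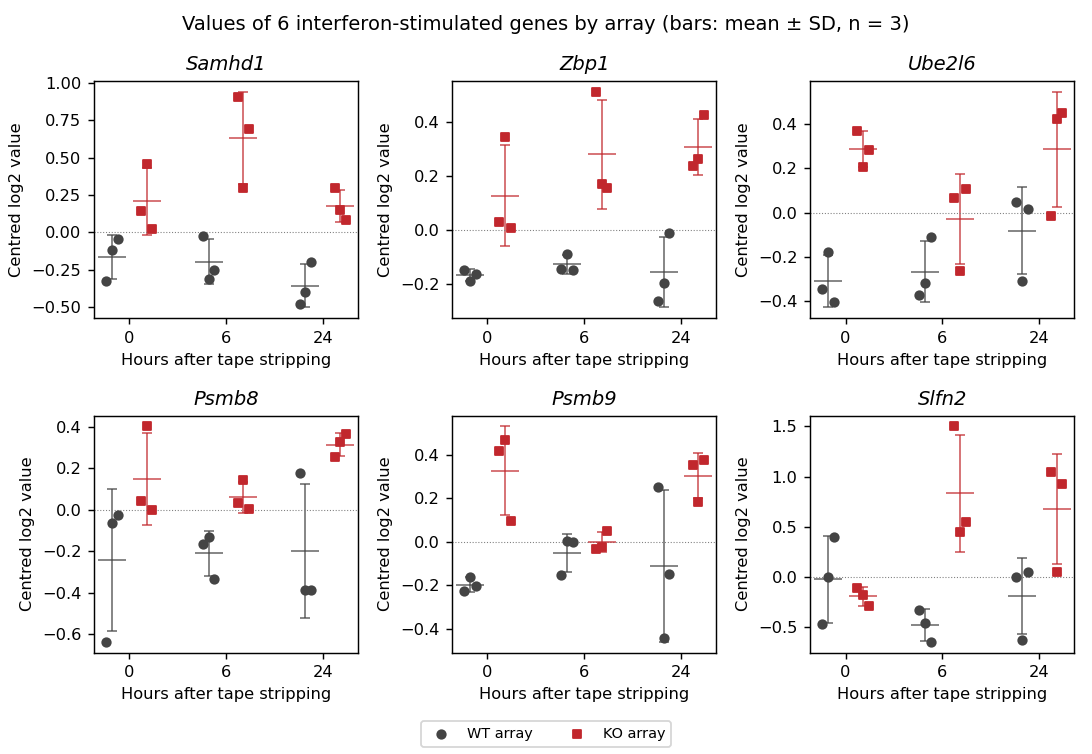
Values of Samhd1, Zbp1, Ube2l6, Psmb8, Psmb9 and Slfn2 in each array (y axis, log2 value minus the gene's median) by hours after tape stripping (x axis). Grey circles are WT arrays and red squares KO arrays, and bars give mean ± SD of 3 arrays; KO lies above WT without overlap at all 3 times for Samhd1, Zbp1 and Psmb8, and Slfn2 separates by 1.31 at 6 h.

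Bst2 encodes tetherin, which holds budding viruses on the cell surface. Bst2 read -0.086, -0.015 and -0.33 in KO and -0.42, -0.22 and -0.032 in WT at 0 h. It read 0.49, -0.017 and 0.17 in KO and 0.20, -0.39 and -0.27 in WT at 6 h. By 24 h it had reached 0.88, 0.43 and 0.44 in KO and stood at 0.15, 0.015 and 0.24 in WT. The 24 h arrays lay above the 0 h arrays without overlap in both genotypes. It rose by 0.73 in KO over 24 h (SE 0.17, 1.66-fold, adjusted p = 0.0157), against 0.36 in WT (adjusted p = 0.402), and the difference between these responses, 0.37, did not pass (adjusted p = 0.717). The KO call was lost without KO replicate 3 at 0 h (0.63) or KO replicate 1 at 24 h (0.58), and within numbers from 3000 up it held at 0.76 (adjusted p = 0.0223).

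Rsad2 encodes viperin, which makes a chain-terminating nucleotide, and Cmpk2 beside it supplies the substrate. Rsad2 read -0.089, -0.013 and -0.12 in KO and -0.066, 0.042 and -0.10 in WT at 0 h. It read 0.23, 0.33 and 0.030 in KO against -0.11, -0.037 and -0.084 in WT at 6 h. For 24 h the values were 0.095, 0.13 and 0.14 in KO and 0.062, 0.013 and -0.094 in WT. KO lay above WT without overlap at 6 h and 24 h but not at 0 h. Rsad2 rose by 0.27 in KO from 0 h to 6 h (SE 0.0697, 1.21-fold, adjusted p = 0.039), a small change that passed in 7 of 17 alternative analyses, and within numbers below 3000 (1 array at 0 h) and from 3000 up (1 array at 6 h) it was 0.27 (adjusted p = 0.461) and 0.30 (adjusted p = 0.138). With single arrays left out it ranged from 0.20 to 0.35, and it passed only without KO replicate 3 at 6 h. At 6 h it was 0.27 higher in KO than in WT (adjusted p = 0.0555). Cmpk2 ran the other way, 0.16 lower in KO at 0 h without overlap (adjusted p = 0.778).

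Of the remaining effectors, Mx1 stayed within -0.074 and 0.066 and Mx2 within -0.15 and 0.13 on all arrays. Rtp4, a chaperone for cell surface receptors that restrains interferon responses, was 0.52 higher in KO at 6 h without overlap (SE 0.192, adjusted p = 0.183). Xaf1, a promoter of apoptosis, was 0.41 higher in KO at 0 h (adjusted p = 0.509) and 0.38 higher at 24 h, the latter without overlap (adjusted p = 0.711).

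Parp14 and Parp9 are ADP-ribosylating enzymes linked to interferon signalling. Parp14 read 0.45, 0.76 and 0.39 in KO and -0.032, -0.00016 and 0.13 in WT at 0 h. At 6 h it read 0.27, 0.00016 and -0.0046 in KO and -0.050, 0.37 and 0.13 in WT. At 24 h it read -0.19, 0.12 and -0.033 in KO and -0.32, -0.33 and -0.36 in WT. KO lay above WT without overlap at 0 h, by 0.50 (SE 0.118, adjusted p = 0.173), and at 24 h, by 0.30 (adjusted p = 0.684), and the genotypes overlapped at 6 h. In KO it fell by 0.44 to 6 h (SE 0.118, adjusted p = 0.0445) and by 0.57 to 24 h (1.48-fold, adjusted p = 0.00874). In WT the 24 h change was -0.37 (adjusted p = 0.197), again without overlap. The 24 h fall in KO passed in all 16 alternative analyses, including -0.61 within numbers from 3000 up (adjusted p = 0.0201), while the 6 h fall passed in 5 of 17 and, with single arrays left out (-0.53 to -0.33), only without KO replicate 1 at 6 h.

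Parp9 read 0.069, 0.79 and 0.29 in KO and 0.019, -0.13 and -0.00017 in WT at 0 h. It read 0.038, -0.011 and 0.21 in KO and 0.20, 0.00017 and -0.0077 in WT at 6 h. Its 24 h values were -0.20, -0.32 and -0.024 in KO and -0.59, -0.071 and 0.046 in WT. The KO arrays at 24 h lay below those at 0 h, and a single array, KO replicate 2 at 0 h, was far above the rest. Parp9 fell by 0.57 in KO over 24 h (SE 0.17, 1.48-fold, adjusted p = 0.0498), a call that passed in 5 of 16 alternative analyses, and without that array the change was -0.36. With single arrays left out it passed only without KO replicate 1 at 0 h (-0.72). Within numbers from 3000 up it was -0.72 (adjusted p = 0.0684).

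**Figure D4:**
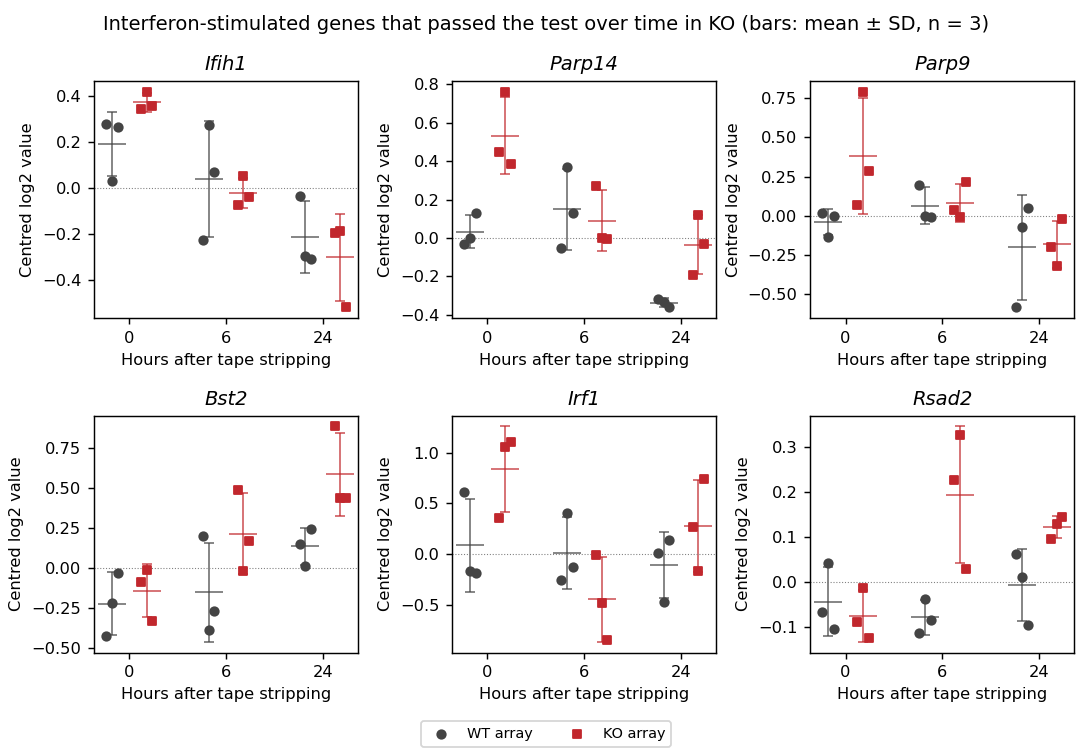
Values of Ifih1, Parp14, Parp9, Bst2, Irf1 and Rsad2 in each array (y axis, log2 value minus the gene's median) by hours after tape stripping (x axis), the 6 genes that passed for a change with time in KO. Grey circles are WT arrays and red squares KO arrays, and bars give mean ± SD of 3 arrays; Ifih1 and Parp14 fall by 0.67 and 0.57 in KO over 24 h and Bst2 rises by 0.73, and the WT differences of these 3 genes are -0.41, -0.37 and 0.36.

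Psmb8 and Psmb9 are subunits of the immunoproteasome and Tap1 is the peptide transporter for MHC class I, and all of them serve antigen presentation. Psmb8 read 0.041, 0.40 and -0.0025 in KO and -0.64, -0.064 and -0.025 in WT at 0 h. It read 0.034, 0.14 and 0.0025 in KO and -0.17, -0.13 and -0.33 in WT at 6 h. At the last time it read 0.25, 0.33 and 0.37 in KO and 0.18, -0.39 and -0.39 in WT. The arrays did not overlap at any time, although the gap at 0 h was only as wide as the small distance between -0.025 and -0.0025. The difference was 0.39 at 0 h, 0.27 at 6 h and 0.52 at 24 h, and the average of 0.39 (SE 0.0961, 1.31-fold) did not pass (adjusted p = 0.102). Psmb9 was 0.52 higher in KO at 0 h without overlap (SE 0.134, adjusted p = 0.209), 0.05 at 6 h and 0.41 at 24 h, with an average of 0.33 (adjusted p = 0.0849). Tap1 differed by 0.21, -0.23 and 0.17 with overlap at each time.

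Gbp3, a guanylate-binding protein that attacks the vacuoles of intracellular microbes, read 0.072, -0.080 and -0.044 in KO and 0.15, 0.12 and 0.095 in WT at 0 h. It read -0.063, -0.016 and 0.16 in KO and -0.096, -0.061 and 0.036 in WT at 6 h. It read 0.058, -0.11 and 0.014 in KO and -0.014, -0.029 and 0.056 in WT at 24 h. Only the 0 h arrays were apart, with KO lower by -0.14 (SE 0.0665, adjusted p = 0.608). Its row may share sequence with other members of this family.

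Few of these genes passed for a change with time after tape stripping, which does not show that the others stayed unchanged. All 24 h arrays carry numbers from 3000 up and the 0 h arrays carry both kinds. Time and number class therefore cannot be fully told apart. In WT, 0 of 34 passed from 0 h to 6 h by limma's moderated test, where 0% of all rows passed, and 1 gene (Gbp3, -0.16) had an unadjusted p under 0.05 (4.62% of all rows did). From 0 h to 24 h in WT, 0 of 34 passed (0.0298% of all rows), with 4 at an unadjusted p under 0.05 (12.5% of all rows), Usp18 up and Ifih1, Parp14 and Trim25 down. In KO, 3 of 34 passed at 6 h (4.98% of all rows, 1.57% higher and 3.41% lower), Rsad2 up and Irf1 and Parp14 down. At 24 h in KO, 4 passed (9.56% of all rows, 3.09% higher and 6.47% lower), Bst2 up and Ifih1, Parp9 and Parp14 down. The shares of 3 and 4 genes in 34 lie near those of the whole table. The median change of the set was 0.0035 and -0.05 in WT at 6 h and 24 h, and 0.0036 and 0.0073 in KO, and each of these 4 values turned its sign under at least 1 other setting. Cell type markers also passed in KO: C1qa rose by 0.54 at 6 h (adjusted p = 0.0234) and by 0.46 at 24 h (adjusted p = 0.0288). At 24 h the keratinocyte markers Krt14 (0.56, adjusted p = 0.00793) and Krt1 (0.34, adjusted p = 0.0432) rose too. S100a9 also rose (0.84, adjusted p = 0.0028), the only 1 of the 6 genes listed for neutrophils and monocytes that passed. This single gene does not show which cells its RNA came from. The part of these markers in the changes of the set was not tested. Comparisons of 6 h and of 24 h with 0 h share the 0 h arrays, so they are not independent. The difference between genotypes in the response passed for 0 of 34 genes at 6 h (0.731% of all rows), with 9 at an unadjusted p under 0.05 (13.1% of all rows), and for 0 at 24 h (0% of all rows), with 4 at an unadjusted p under 0.05 (9.2%).

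Further genes of the pathway were read from lists drawn up by name, also with earlier results known, and 98 of them were measured. Of 19 interferon genes, 9 receptors and JAK kinases, 5 STAT and IRF factors, 12 sensing genes, 7 negative regulators and 46 other interferon-stimulated genes, 0 passed for genotype at 0 h, at 24 h or on average over time by limma's moderated test, with 19, 9 and 24 of the 98 at an unadjusted p under 0.05 (8.48%, 6.71% and 12.3% of all rows). At 6 h, 4 passed and each was lower in KO: the receptor chains Ifngr2 (-0.57, adjusted p = 0.0442) and Ifnlr1 (-0.51, adjusted p = 0.0215), the adaptor Mavs of the RNA sensors (-0.62, adjusted p = 0.0196) and Ptpn6, a phosphatase that dampens JAK signalling (-0.49, adjusted p = 0.0223). At that time 1.82% of all rows passed in that direction. Of 46 other interferon-stimulated genes, 36 were above 0 on average over time (50.2% of all rows), with a median of 0.06, and 13 had an unadjusted p under 0.05 with a higher value in KO (4.48% of all rows). The smallest adjusted p among them belonged to Igtp, an immunity-related GTPase (0.53, adjusted p = 0.0597). None of the 19 interferon genes passed for genotype, and Ifna2 came nearest at 6 h (0.32, adjusted p = 0.137).

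With time, 0 of these 98 genes passed in WT at 6 h or 24 h by limma's moderated test, with 11 and 17 at an unadjusted p under 0.05 (4.62% and 12.5% of all rows). In KO at 6 h, 6 of the 98 passed, a share near the 4.98% of all rows. The skin-expressed interferon Ifnk (0.34, adjusted p = 0.0275) and the receptor chain Ifnar2 (0.37, adjusted p = 0.0355) rose. Mavs (-0.47, adjusted p = 0.0344), the RNA sensor Tlr3 (-0.73, adjusted p = 0.0117), the MHC class I activator Nlrc5 (-0.68, adjusted p = 0.037) and the chemokine Cxcl10 (-0.85, adjusted p = 0.0168) fell.

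In KO at 24 h, 13 of the 98 passed, where 9.56% of all rows did. Those that rose were Ifna9 (0.28), the adaptor Myd88 (0.36), Ifi27 (0.43), Lgals9 (0.98), and Ifitm2 (0.94, adjusted p = 0.00713) and Ifitm3 (0.82, adjusted p = 0.0181), which block virus entry and are similar in sequence. Those that fell were the kinase Jak1 (-0.47), Tlr3 (-0.81, adjusted p = 0.00259), the MHC class I light chain B2m (-0.30), Gbp7 (-0.79), Sp100 (-0.43), Pnpt1 (-0.60) and Eif2ak2, which encodes the RNA-activated kinase PKR (-0.67, SE 0.0841, adjusted p = 0.00135). In WT the change of Eif2ak2 was -0.42 (adjusted p = 0.0607). For Tlr3 the difference between genotypes in the 24 h response was -0.77 (adjusted p = 0.231).

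**Figure D5:**
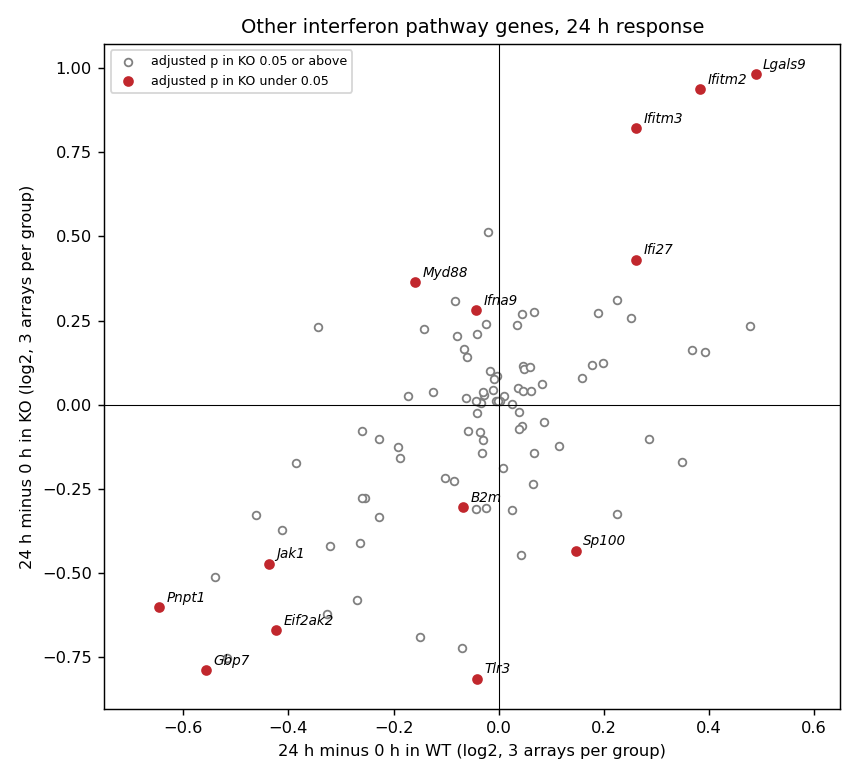
Change from 0 h to 24 h in WT (x axis, log2) and in KO (y axis, log2) of 98 further interferon pathway genes, each a point, from group means of 3 arrays. Red named points passed in KO at an adjusted p under 0.05, 6 of them above 0 and 7 below; Ifitm2 and Eif2ak2, at 0.94 and -0.67 in KO, have WT values of 0.38 and -0.42.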

How the data were processed

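Total RNA of epidermal sheets was turned into biotin-labelled cDNA and hybridised to Affymetrix arrays, per the labels' protocols, 18 arrays in 6 groups of 3. The authors deposited 1 table of 33793 rows of values taken here as log2, as their range of -6.4 to 4.3 allows, and 100% of its rows have a median of 0 within 1e-06. A natural log is possible, and every difference would then be larger on the log2 scale. How the arrays were normalised, and in which software, was not given in the sources used here. The platform's annotation named 1 gene in 23521 rows, several in 1814 and none in 8458. No level or filter on dim rows was possible, and the number of arrays limits the precision.

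A model with a mean per group was fitted to these 23521 rows over all arrays in limma 3.58.1 (R 4.3.3), with 12 residual degrees of freedom. Moderated 2-sided p-values of 10 contrasts received a Benjamini-Hochberg adjustment across these rows, and an adjusted p under 0.05 passed. The fit was tested on simulated data. With 3 arrays against 3 an exact permutation test cannot go below 0.1, so none is given. Groups came from the sample titles. The genes, their role groups and the further lists were chosen with earlier results of these data known. Values in every array are given for each gene that passed in any contrast, the 2 genes with the smallest p for genotype at each time and for 24 h against 0 h, and the gene with the widest range in each role group. Alternatives were another quantile normalisation, arrays shifted to 1 median, all rows, robust and weighted fits, only the groups compared, the replicate number or number class (split at 3000) as a block or within a class, a log2 difference of at least 0.5, the mean of a gene's rows, and each array left out.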

Additional observations from a re-analysis of the deposited data

Results flagged for a closer look

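Psmb9, the immunoproteasome subunit, had differences of opposite sign in the genotypes between 0 h and 6 h, and the arrays of the 2 times did not overlap in either genotype. In KO it went from 0.42, 0.47 and 0.094 to -0.033, -0.023 and 0.049, and in WT from -0.23, -0.16 and -0.20 to -0.15, 0.0031 and -0.0031. The difference between genotypes in this response was -0.48 (SE 0.189) and did not pass limma's moderated test (adjusted p = 0.278).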

How the results depend on the processing

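Of 714 values recomputed under another setting, 26 changed sign, but the 714 include counts of genes past the test, which cannot change sign. Each of the 26 was a median over the 34 genes. In KO the sign changed in 10 of 17 settings for 6 h against 0 h and in 4 of 16 for 24 h. In WT it changed in 5 of 17 and 1 of 16. For the difference between genotypes in the 6 h response it changed in 5 of 23, and for KO against WT at 6 h in 1 of 17. The medians of the other comparisons kept their sign. The differences of single genes recomputed in this way kept their sign. These were only genes that passed in the comparison or were among the 2 with its smallest p. A kept sign was therefore likely from the start and says nothing of the other genes. Counts of genes past the test moved as follows. For KO against WT at 6 h (2 in the text), the count was 1 over all rows of the table and 0 with only the groups compared. No count is given within numbers from 3000 up (1 array against 1). With single arrays left out the count was 0 to 2. It was 1 without KO replicate 1 or 2, and 0 without KO replicate 3, WT replicate 2 or WT replicate 3. For the average over time (3) the count was 1 with a log2 difference of at least 0.5, and 2 to 4 with single arrays left out. No count is given for it within numbers from 3000 up, where 6 h has 1 array against 1. At 0 h (0) it was 1 with array weights, which was Ube2l6 (adjusted p = 0.0391). For 6 h against 0 h in KO (3) it was 1 after another quantile normalisation, 1 with only the groups compared, 1 with the number class as a block, 0 within numbers below 3000, 0 from 3000 up, 1 with a log2 difference of at least 0.5, and 0 to 3 with single arrays left out (0 without KO replicate 2 or 3 at 0 h). For 24 h against 0 h in KO (4) it was 2 to 5 with single arrays left out, and 2 without KO replicate 3 at 0 h or KO replicate 1 at 24 h. For the difference between genotypes in the 6 h response (0) it was 1 with array weights and 0 to 2 with single arrays left out (2 without WT replicate 1 at 0 h). The cause was not tested for any of these, apart from the fewer samples or rows that some settings hold by construction.

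The replicate numbers did not pair the arrays: over 45 same-numbered pairs of different groups the correlation of deviations ran from -0.458 to 0.251, 9 were over 0.1, and 4 of 18 arrays correlated best with their own number. With the replicate number as a block, 3 genes passed for KO against WT at 6 h, 2 on average over time, 2 for 6 h and 3 for 24 h against 0 h in KO, and 0 in the other comparisons.

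The level of each gene over background is unknown here, so a gene that stayed flat may be too dim to measure, and groups of 3 arrays give SEs from 0.0453 (Mx1) to 0.302 (Slfn2) for a difference.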
